A study of Mus musculus with 4 samples.

Results

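The genes described here are 38 genes of autophagy and the lysosome, chosen by symbol from a list of autophagy machinery, lysosomal membrane proteins and lysosomal enzymes. The rule uses no measured value, but the list was drawn up with earlier results of these data known. Each of the 38 had 1 row in each of 2 tables of gene expression, which listed 25522 and 26085 genes, and each carried an adjusted p in both. By role they comprise 27 genes of the autophagy machinery and 11 of the lysosome.

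RNA was sequenced from the crypts of the small intestine, the pits of the gut lining that hold its stem cells and Paneth cells, of C57BL/6J male mice, 9 weeks old. The 4 groups were mice fed without tetracycline, fasted for 24 hours without tetracycline, fed after 21 days of tetracycline, and fasted for 24 hours after 21 days of tetracycline. No genetic change is named in the labels, and the study asked how loss of AKK (an abbreviation the labels do not spell out) under tetracycline alters expression in the fed and in the fasted state. The labels list 1 sample in each group, but the deposited means were built from 4 libraries per table, 2 fasted and 2 fed.

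Autophagy delivers cell contents to the lysosome. The ULK1 kinase complex starts the process, the Beclin 1 lipid kinase complex marks the forming membrane, and ubiquitin-like conjugation attaches proteins of the LC3 and GABARAP family to it. Receptors such as SQSTM1 bring cargo, and the finished vesicle fuses with a lysosome, where hydrolases digest it. Lack of nutrients is the classic inducer, largely through kinase signalling on the proteins themselves. The transcription factors TFEB and TFE3 also raise expression of many of these genes. In the crypt, ATG16L1 and ATG5 are known for their part in Paneth cell granule secretion.

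TFEB and its relatives bind an E-box within a longer motif that was itself described from promoters of lysosomal genes, so its presence in such genes is no independent result. The 8 letters GTCACGTG were searched on both strands (the other strand reads CACGTGAC) in RefSeq promoter windows of GRCm38.p6, from 250 bases before to 50 after the gene start. Windows matched 32 of the 38 genes, all but Becn1, Atg12, Atg16l1, Map1lc3a, Atp6v1h and Ctsb. These 32 had 37 windows, and the gene start named below is that of the window. In the GENCODE M21 annotation Atg7 begins at 114643097, Ctsa at 164832873 and Atg14, on the minus strand, at 47570649. Each of these lies upstream of the site shown. The motif was in 7 of the 32 (21.88%), against 2.549% of all 27025 genes with a window and 4.749% of the 9961 whose mean reached 50 in both tables. The core CACGTG, which the longer motif contains, was in 10 of the 32 (31.25%), against 8.093% and 11.65%. The palindrome TCACGTGA, which shares 7 letters with the first motif, was in 4 of the 32 (12.5%), against 1.125% and 2.219%. To show what these promoters share, 30 bases around the match nearest the start on its upstream side are given for each of the 7 genes, 5′ to 3′ on the gene's strand, with the motif in capitals.
Ctsd, chr7:142387907-142387936, minus strand, motif starting 98 bases before the gene start: cgcccgcgtctCACGTGACccgttgagggc
Ctsa, chr2:164833748-164833777, plus strand, 14 bases before: atgagcaaactGTCACGTGatgcagatgct
Mcoln1, chr8:3500463-3500492, plus strand, 45 bases before: ggcgccccgctCACGTGACcgcggcgcatg
Lamp1, chr8:13159122-13159151, plus strand, 28 bases before: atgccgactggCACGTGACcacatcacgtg
Atg3, chr16:45158745-45158774, plus strand, 73 bases before: gggagagtcgaGTCACGTGaggccttaggt
Atg7, chr6:114670951-114670980, plus strand, 134 bases before: ccatattggtgGTCACGTGtgcagtaagtg
Atg14, chr14:47568417-47568446, minus strand, 1 base before: aaacaaaatccCACGTGACtggccctgagc
A match is a description of the sequence and shows no binding.

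The change on fasting is given as the log2 ratio of fasted over fed with its standard error (SE). No column states its direction, which was inferred from how the tables are named, and every direction below depends on that reading. Values per library are counts divided by the library's size factor (normalized counts), recovered from the deposited means; library 1 of a side has the larger size factor of its pair. They carry no standard deviation, since nothing ties them to the labelled samples. Depth was similar without tetracycline (largest size factor 1.17 times the smallest) and less even with it (1.75 times). Markers of the gut epithelium were high in every library, 6 of them (Cdh1, Cdx1, Cdx2, Epcam, Krt18 and Krt19) summing to 191191 to 277018 normalized counts. Blood cell markers were present too: the sum of 11 lymphocyte markers ranged from 8804 to 157833, and that of 4 red cell markers from 11663 to 293090. In whole crypt RNA, fewer cells of a type and less RNA per cell cannot be told apart.

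Fasting without tetracycline left none of the 38 genes past the test. The authors' deposited table gave 0 of 38 with an adjusted p under 0.05 by DESeq2, where 2.27% of all genes tested were called (411 of 18100). One of the 38, Lamp2, had an unadjusted p under 0.05, against 10.8% of all genes. The median change of the 38 in the authors' deposited table was -0.02, and that of all genes whose mean reached 50 was also -0.02. Of the 38, 16 had positive and 22 negative values, from -0.52 for Atg10 to 0.64 for Lamp2.

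Fasting with tetracycline gave the same count. The authors' deposited table had 0 of 38 called (0.6% of all genes, 108 of 17993), 0 with an unadjusted p under 0.05 (5.34% of all genes), and an adjusted p of 0.9999 by DESeq2 for each. The median change of the 38 there was 0.10, against -0.01 for all genes whose mean reached 50, with 27 positive and 11 negative values from -0.62 for Atg10 to 0.72 for Bnip3.

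These counts do not show that the genes were unaffected. The 95% interval of the change (1.96 SE to either side) lay within a 2-fold change in either direction for 34 of the 38 genes without tetracycline and for 16 of the 38 with it. The median SE, again from the authors' deposited tables, was 0.28 in the first setting and 0.43 in the second. The exceptions without tetracycline were Lamp2, Bnip3, Wipi1 and Atg10.

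**Figure D1:**
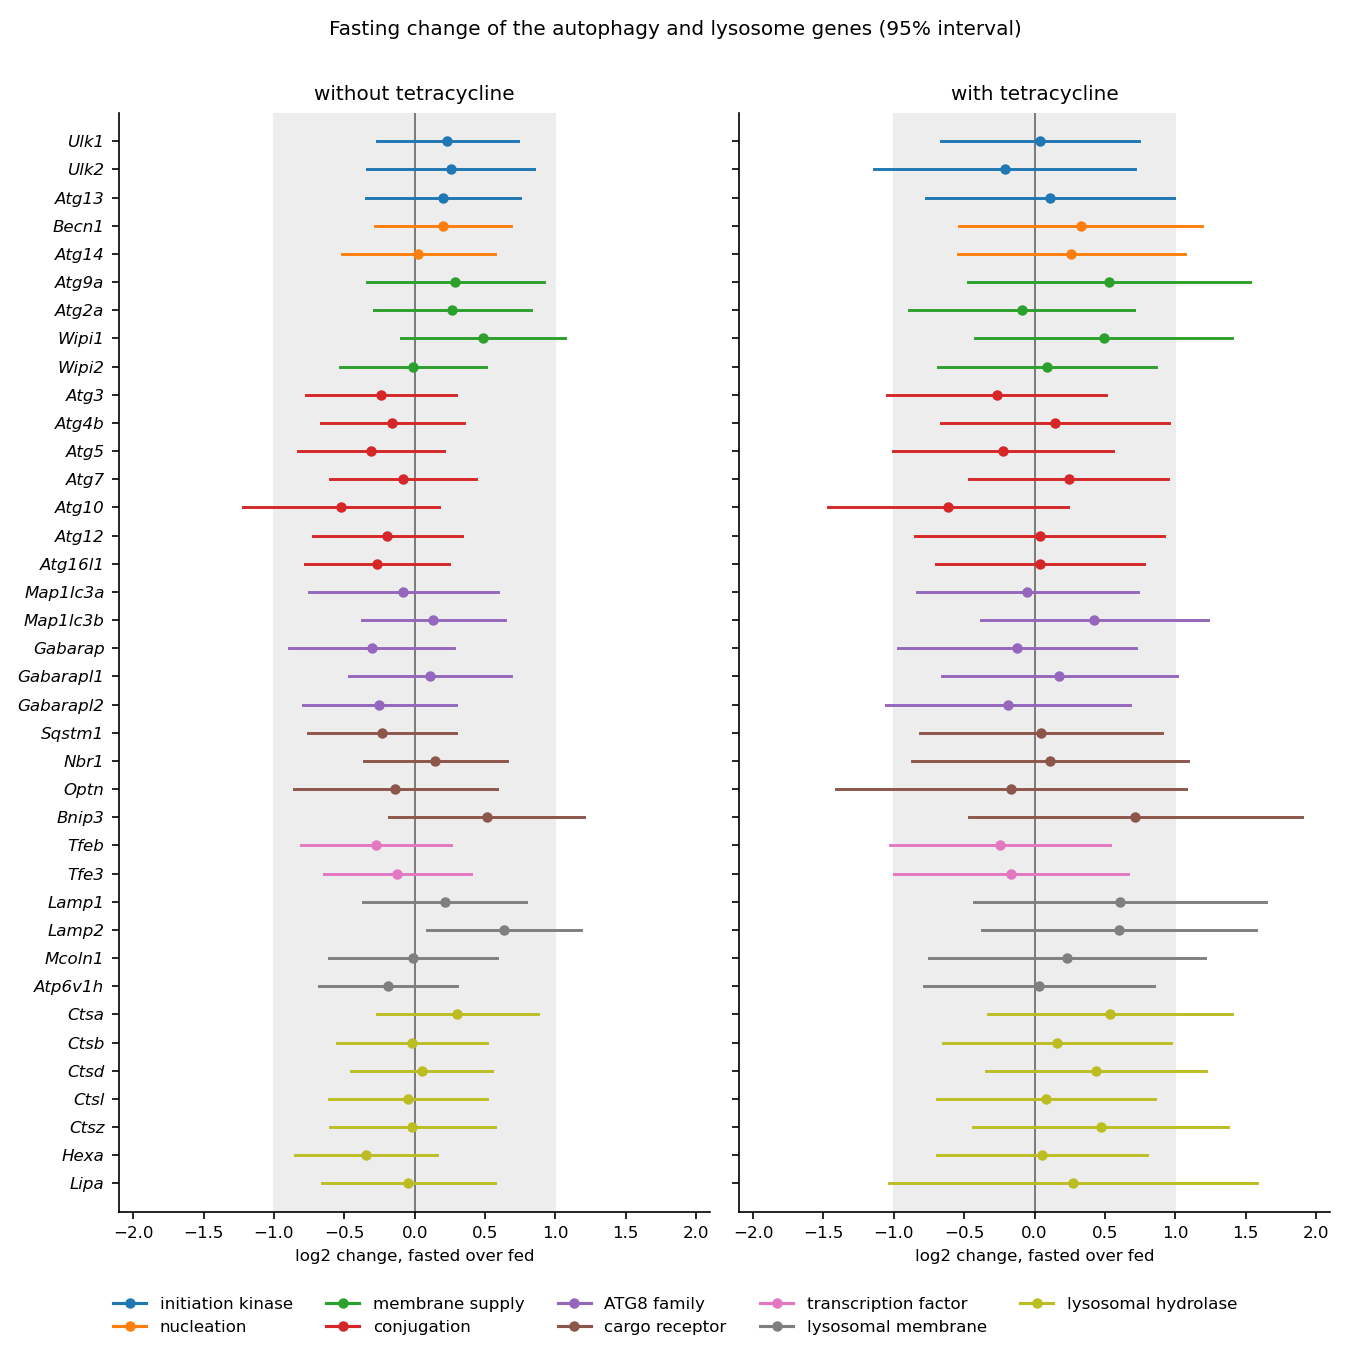
Log2 change of fasted over fed (x axis) of the 38 genes, coloured by role, without (left) and with tetracycline (right), from the authors' deposited tables; bars are 95% intervals and the grey band spans a 2-fold change to either side. The bars are wider with tetracycline, where 16 of 38 stay inside the band against 34 of 38 without it, and every bar but that of Lamp2 without tetracycline crosses 0.

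Among the genes that start autophagy, the 3 of the initiation complex had positive values without tetracycline, 0.20 to 0.25 in the authors' deposited table. Atg13, a scaffold of the ULK1 complex and the highest of the 3 by mean, had 3730 and 2962 normalized counts in the fasted and 2554 and 3261 in the fed libraries without tetracycline. With tetracycline it had 2537 and 4518 in the fasted and 3533 and 3008 in the fed. The groups overlapped in both settings. Ulk1, the kinase itself, was above both fed libraries in both fasted libraries without tetracycline (2131 and 1990 against 1831 and 1682), with a change of 0.23 (SE 0.26) in the authors' deposited table. With tetracycline its 4 libraries lay between 2125 and 2384 and overlapped, and those of Ulk2, a second ULK kinase, between 1126 and 2107.

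Becn1, the Beclin 1 subunit of the lipid kinase complex, had 8861 and 8264 normalized counts fasted and 7127 and 7766 fed without tetracycline. With tetracycline it had 7135 and 12594 fasted against 8006 and 7720 fed. The groups were apart in the first setting and overlapped in the second. Its changes of 0.20 (SE 0.25) and 0.33 (SE 0.44) in the authors' deposited tables did not pass the test (adjusted p 0.887 and 0.9999, DESeq2). Atg14, the subunit that directs the complex to autophagy, had 0.03 (SE 0.28) and 0.26 (SE 0.41) in the same authors' deposited tables. Exons of Becn1 overlap those of Cntd1 on the other strand over 1297 bases in GENCODE M21, and the library kit did not keep strand, so reads of the pair cannot be told apart there. Exon overlaps with another gene, mostly shorter, touch 16 of the 38 genes, for Ctsd with a gene on the same strand alone.

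In the group that supplies membrane, Wipi1, a phosphoinositide-binding protein of the forming vesicle, had positive values in both tables. Without tetracycline it stood at 855 and 910 normalized counts fasted and 726 and 532 fed. With tetracycline the values were 1028 and 698 fasted and 474 and 755 fed. The fasted libraries were above the fed ones in the first setting and overlapped them in the second. Its change was 0.49 (SE 0.30, adjusted p 0.604, DESeq2) and 0.49 (SE 0.47, adjusted p 0.9999), per the authors' deposited tables, and 0.604 is the second smallest adjusted p of the 38 without tetracycline after that of Lamp2. Leaving out each library in turn gave 0.28 (fed library 2 out) to 0.73 (fed library 1 out) in the first setting. In the second it gave 0.18 and 0.19 (fasted or fed library 1 out) and 0.74 and 0.86 (fasted or fed library 2 out).

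Atg9a, a lipid scramblase and the only membrane-spanning ATG protein of the core set, followed 1 fasted library in each setting. It had 7818 and 4507 normalized counts fasted against 4575 and 5511 fed without tetracycline. With tetracycline it had 3889 and 9113 against 4476 and 4532. One fasted library was the highest and the other the lowest in each setting. The change was 0.29 (SE 0.32) and 0.53 (SE 0.51) in the authors' deposited tables. It was -0.16 without fasted library 1 in the first setting and -0.21 without fasted library 2 in the second. Its exons overlap those of Ankzf1 on the other strand over up to 1072 bases. The lipid transfer protein Atg2a and the phosphoinositide-binding Wipi2 had changes between -0.09 and 0.27 in the authors' deposited tables.

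The 7 conjugation genes were all on the negative side without tetracycline, from -0.52 to -0.08 in the authors' deposited table, with a median of -0.24 and 0 called. With tetracycline 4 of the 7 were positive and the median was 0.04 in the authors' deposited table. Atg10, the E2-like enzyme that joins ATG12 to ATG5, had the lowest mean of the 38 genes per length, over fasted and fed libraries together. It had 161 and 148 normalized counts fasted and 236 and 208 fed without tetracycline. Tetracycline-treated mice had 181 and 153 fasted against 258 and 255 fed. Both fasted libraries were below both fed libraries in both settings, an order that 24.6% of the genes whose mean reached 50 had without and 15.2% with tetracycline. The changes were -0.52 (SE 0.35, adjusted p 0.677, DESeq2) and -0.62 (SE 0.44, adjusted p 0.9999), per the authors' deposited tables.

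Atg5, the partner of ATG12 in the conjugate, had 2659 and 2242 normalized counts fasted and 2804 and 3280 fed without tetracycline, which did not overlap. The libraries with tetracycline stood at 2074 and 3008 fasted and 2894 and 3044 fed, which did. Its changes were -0.31 (SE 0.26) and -0.22 (SE 0.40) in the authors' deposited tables. Atg12, the ubiquitin-like protein and the highest of the group by mean, had 2833 and 2383 fasted against 2687 and 3278 fed without tetracycline, and 2303 and 4222 against 3154 and 3200 with it, overlapping both times. The others are the E2-like Atg3, the protease Atg4b, the E1-like Atg7 and Atg16l1, which places the conjugate on the membrane. Atg16l1 was lower in both fasted libraries without tetracycline (1308 and 1168 against 1503 and 1479), and Atg7 higher in both with it (1324 and 1282 against 1119 and 1085).

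The ATG8 family, the proteins coupled to the vesicle membrane, had 2 of 5 positive values in each authors' deposited table. Gabarap, its most abundant member, had 16517 and 11571 normalized counts fasted and 14613 and 20062 fed without tetracycline. Under tetracycline the values were 10116 and 17075 against 15607 and 14059. The groups overlapped, with changes of -0.30 (SE 0.30) and -0.13 (SE 0.43) in the authors' deposited tables. Map1lc3b, which encodes the commonly assayed LC3B, had 0.13 (SE 0.26) and 0.42 (SE 0.41) there in the authors' deposited tables. Map1lc3a, Gabarapl1 and Gabarapl2 lay between -0.25 and 0.18 in those authors' deposited tables.

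Of the 4 cargo receptors, Bnip3, a mitochondrial receptor known to be raised by low oxygen, had the largest positive value with tetracycline among the 38. It had 999 and 811 normalized counts fasted and 446 and 823 fed without tetracycline. Its values with tetracycline were 571 and 1831 fasted and 788 and 672 fed. The groups overlapped in both settings. The change was 0.51 (SE 0.35, adjusted p 0.685, DESeq2) and 0.72 (SE 0.60, adjusted p 0.9999), per the authors' deposited tables, and -0.35 with tetracycline when fasted library 2 was left out. Without tetracycline it was 0.14 when fed library 1 was left out and 1.02 when fed library 2 was.

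Nbr1, a ubiquitin-binding receptor and the highest of this group by mean, had 11709 and 9233 normalized counts fasted against 9430 and 9487 fed without tetracycline. In mice given tetracycline it stood at 7192 and 16140 against 10751 and 10853, so the fasted libraries lay on either side of the fed ones. Sqstm1, the p62 receptor, had changes of -0.23 (SE 0.27) and 0.05 (SE 0.44) in the authors' deposited tables. Optn, a receptor for damaged mitochondria and bacteria, differed more between libraries of 1 side than between sides: 8560 and 4051 fasted against 5828 and 8050 fed, and with tetracycline 2752 and 10470 against 8154 and 6707.

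Both transcription factors had negative values in both authors' deposited tables. Tfe3, the higher by mean, had 1962 and 1635 normalized counts fasted and 1846 and 2076 fed without tetracycline, and 1456 and 2304 against 2240 and 1981 with it. The groups overlapped. Tfeb was below both fed libraries in both fasted libraries without tetracycline (1139 and 967 against 1199 and 1353), with a change of -0.28 (SE 0.27) in the authors' deposited table.

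Lamp2, a lysosomal membrane protein that also serves chaperone-mediated autophagy, came nearest to the test. It had 15355 and 10639 normalized counts fasted and 8187 and 8549 fed without tetracycline. Tetracycline-treated mice had 7442 and 15006 fasted and 6011 and 8795 fed. Both fasted libraries were above both fed ones in the first setting, and they overlapped in the second. The change without tetracycline was 0.64 (SE 0.28, 95% interval 0.09 to 1.18, unadjusted p 0.0232, adjusted p 0.323, DESeq2), per the authors' deposited table. With tetracycline it was 0.60 (SE 0.50, 95% interval -0.38 to 1.58) in the authors' deposited table. Leaving out fasted library 1 gave 0.35 in the first setting, and leaving out fasted library 2 gave 0.01 in the second.

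Lamp1, the other abundant membrane glycoprotein of lysosomes, was the most abundant of the 38 by its mean count over the 4 libraries of each setting. It had 37643 and 25286 normalized counts fasted and 24044 and 30259 fed without tetracycline. With tetracycline the fasted libraries were at 20228 and 50926 and the fed at 21783 and 24956. The groups overlapped, and the fasted libraries with tetracycline were the lowest and the highest of the 4. The changes were 0.21 (SE 0.30) and 0.61 (SE 0.53) in the authors' deposited tables. They turned to -0.10 without fasted library 1 in the first setting and to -0.21 without fasted library 2 in the second. The calcium channel Mcoln1 and the proton pump subunit Atp6v1h had changes between -0.19 and 0.23 in the authors' deposited tables, and Atp6v1h was below both fed libraries in both fasted ones without tetracycline.

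The 7 lysosomal hydrolases had 2 positive values in the first of the authors' deposited tables and 7 in the second, that with tetracycline, with 0 called in either. Ctsa, the protective protein cathepsin A, had 11496 and 8027 normalized counts fasted and 6931 and 8890 fed without tetracycline, and 7688 and 13447 against 7739 and 6834 with it. The groups overlapped, with changes of 0.30 (SE 0.29) and 0.54 (SE 0.44) in the authors' deposited tables. These were 0.02 without fasted library 1 in the first setting and 0.08 without fasted library 2 in the second. Ctsz, a cysteine carboxypeptidase, had 12115 and 9055 fasted against 8777 and 12623 fed, and 7812 and 14846 against 7488 and 8874 with tetracycline. Its changes were -0.02 (SE 0.30) and 0.47 (SE 0.46) in the authors' deposited tables.

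Ctsb, a cysteine protease and the highest hydrolase by mean, had 28590 and 22289 normalized counts fasted against 23161 and 28379 fed without tetracycline. The libraries with tetracycline stood at 20098 and 31032 against 21293 and 24479, overlapping in both. Hexa, a subunit of the ganglioside-degrading hexosaminidase, was lower in both fasted libraries without tetracycline, at 5160 and 4749 against 5711 and 6880. Its change was -0.35 (SE 0.26) there and 0.05 (SE 0.38) with tetracycline in the authors' deposited tables. Ctsd, an aspartic protease, was higher in both fasted libraries with tetracycline, at 11033 and 16397 against 10383 and 9883, with a change of 0.44 (SE 0.40) in the authors' deposited table. Ctsl, another cysteine protease, and Lipa, the acid lipase, had changes between -0.05 and 0.27 in the authors' deposited tables.

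Counted over all 38 genes without tetracycline, both fasted libraries were above both fed libraries in 4 (Lamp2, Wipi1, Ulk1 and Becn1), where 19.9% of genes whose mean reached 50 had this order. They were below in 6 (Atg10, Hexa, Atg5, Atg16l1, Tfeb and Atp6v1h), against 24.6%. With tetracycline they were above in 2 (Ctsd and Atg7), against 15.7%, and below in Atg10 alone, against 15.2%.

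**Figure D2:**
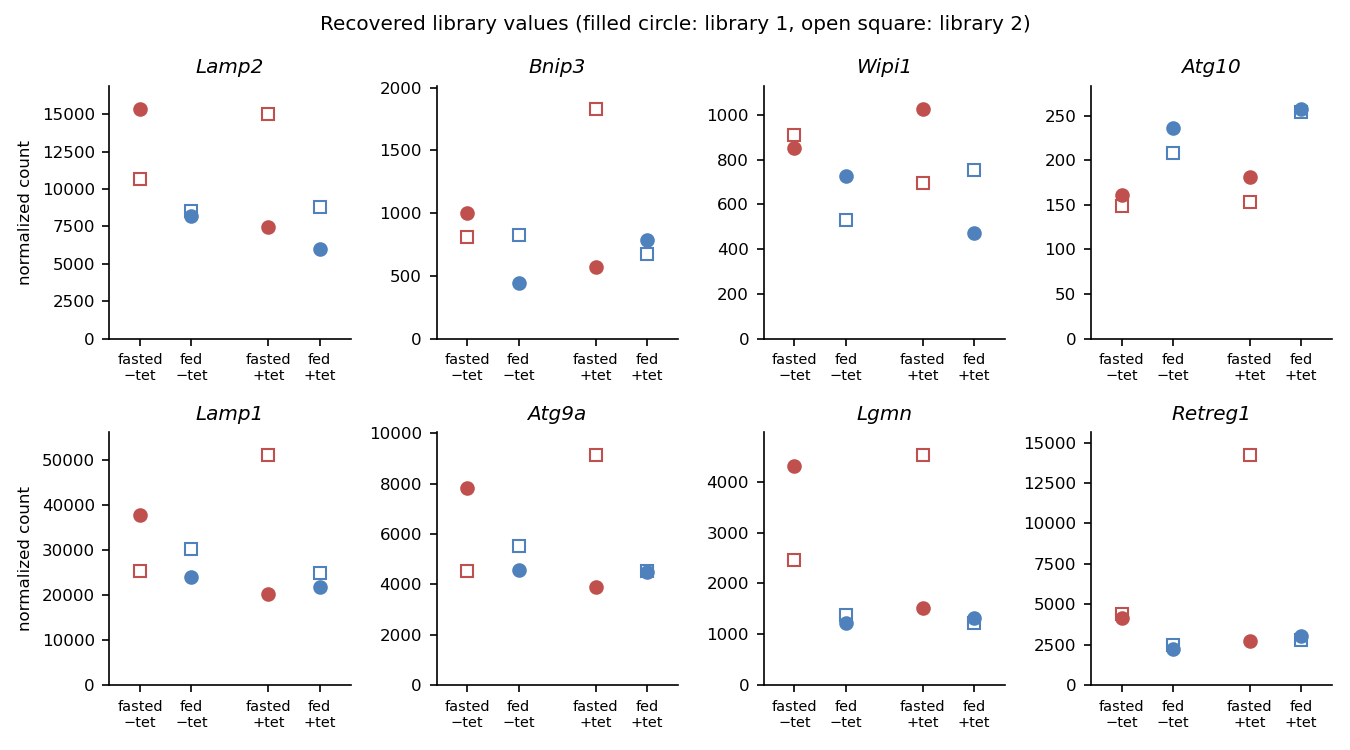
Normalized count per recovered library (y axis, from 0) of 6 of the 38 genes and of Lgmn and Retreg1 from the wider pathway; fasted libraries are red and fed libraries blue, -tet and +tet are without and with tetracycline, filled circles are library 1 and open squares library 2 of a side. Atg10 is lower in all fasted libraries, and the high values of Bnip3, Lamp1, Atg9a, Lgmn and Retreg1 with tetracycline are those of fasted library 2.

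Within each pair of libraries on 1 side, most of the 38 genes differed in the same direction, by 34 or 35 of 38 in 3 pairs and by 26 of 38 in the fed pair with tetracycline. Without tetracycline, 35 of the 38 genes were lower in fasted library 2 than in fasted library 1, with a median log2 ratio of -0.28. Among genes whose mean reached 50 the split was even, with 49.8% higher in library 2. The fed libraries differed the other way, with 34 of the 38 higher in fed library 2 and a median of 0.28, against 51.8% of all such genes.

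With tetracycline, 34 of the 38 were higher in fasted library 2, with a median log2 ratio of 0.64, against 54.3% of the genes whose mean reached 50 and their median of 0.08. The 4 others were Wipi1, Ctsl, Atg10 and Atg7. Fasted library 2 had the smallest size factor of the 4 libraries with tetracycline, 0.73 against 1.22 for fasted library 1. Lipa was 4.42-fold, Optn 3.80-fold and Bnip3 3.21-fold higher in library 2 than in library 1. The fed libraries with tetracycline were closer, with 12 of the 38 higher in library 2 and a median of -0.06, against 55.1% of the genes whose mean reached 50 and their median of 0.05. Fasted library 2 held the highest value of the 4 libraries for 29 of the 38 genes (36.7% of the genes whose mean reached 50), and fasted library 1 the lowest for 26 (35.7% of the same genes).

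Markers of cell types moved between the same libraries. The sum of 3 enterocyte markers (Alpi, Apob and Lct, those of 10 listed with counts recovered in both tables) was 447139 and 166523 normalized counts in the fasted and 154819 and 243185 in the fed libraries without tetracycline. With tetracycline it was 80714 and 423343 fasted and 205281 and 244435 fed. The library with the higher sum was the one in which most of the 38 genes were higher in 3 of the 4 pairs, and the fed pair with tetracycline was the exception. Stem cell markers (5 of 5 summed) stood at 55908 and 72251 fasted and 101457 and 65350 fed without tetracycline, and at 90564 and 23269 fasted and 49136 and 101869 fed with it. Paneth cell markers (7 of 9) stood at 256130 and 321507 fasted and 157379 and 122481 fed without tetracycline, and at 559448 and 97342 fasted and 128702 and 158733 fed with it. Both of these sums were lower, in all 4 pairs, in the library in which most of the 38 genes were higher. The part of these shifts in the values of the 38 genes was not tested.

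Markers of myeloid cells, which are rich in lysosomes, were lower in both fasted libraries without tetracycline, while the sides overlapped with it. The 16 markers summed to 4121 and 6759 fasted against 7860 and 11372 fed without tetracycline, and to 10262 and 2222 against 28286 and 9815 with it, and none was at 0 in any library. Of the 16, 0 had a positive change in either of the authors' deposited tables, with 1 called lower without tetracycline and 0 with it. Their part in the values of the 38 genes was not tested.

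**Figure D3:**
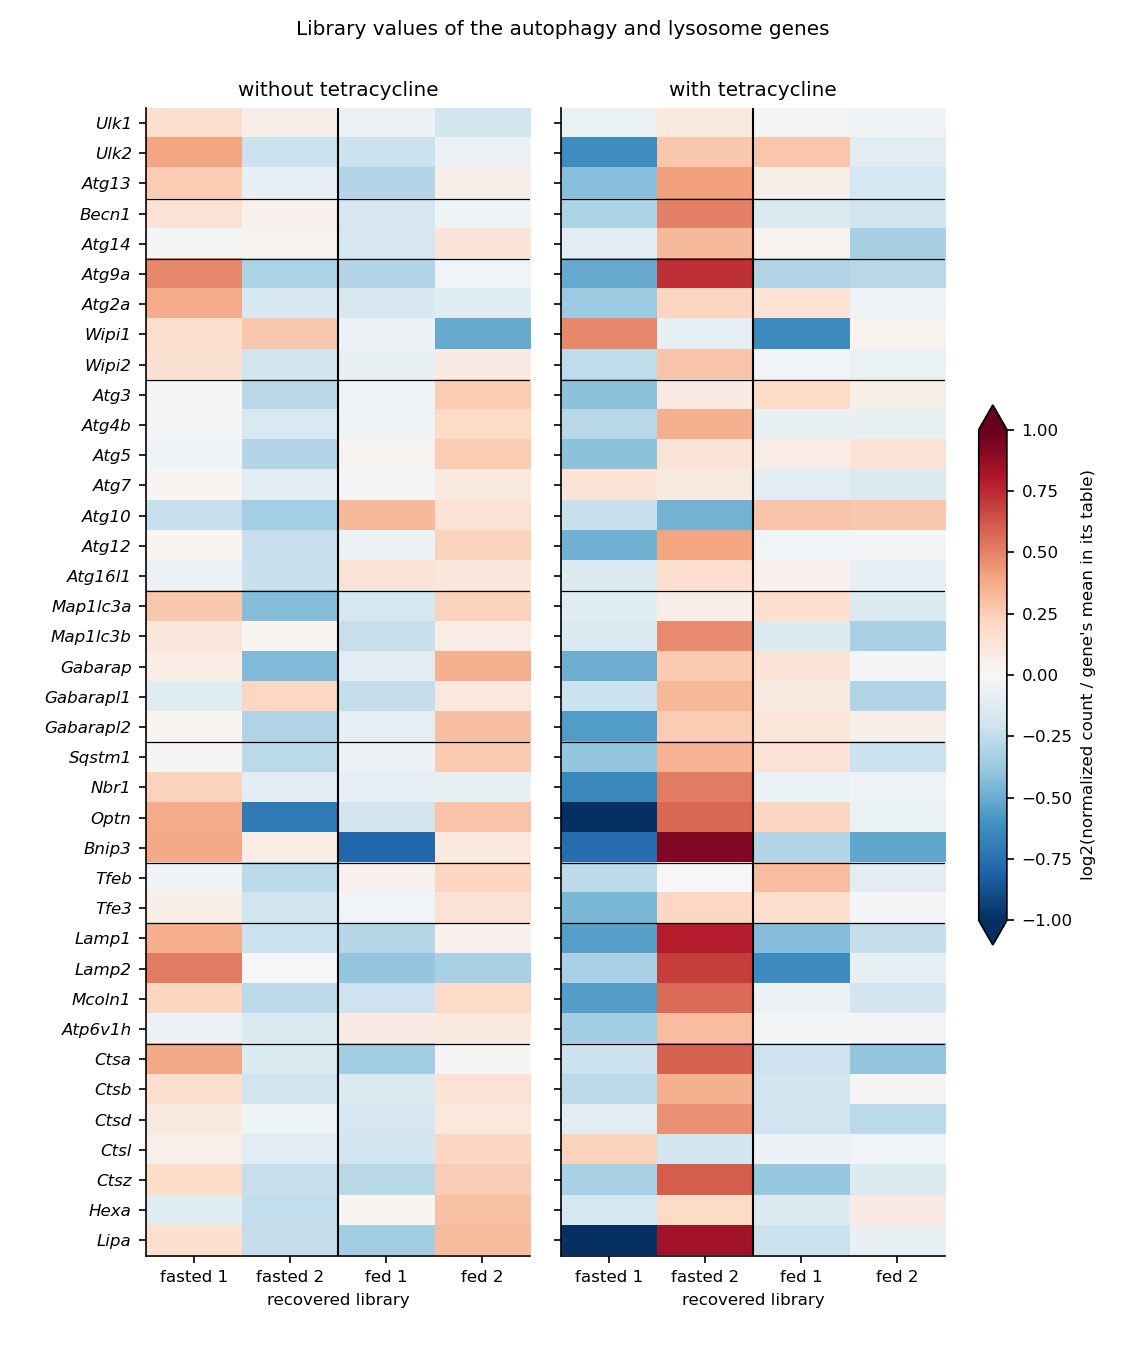
Colour gives log2 of a library's normalized count over the gene's mean in its table for the 38 genes (rows, parted by role) in the 4 libraries of each table (columns); the scale ends at 1 to either side. With tetracycline most rows are blue in fasted library 1 and red in fasted library 2, while the fed libraries are paler.

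**Figure D4:**
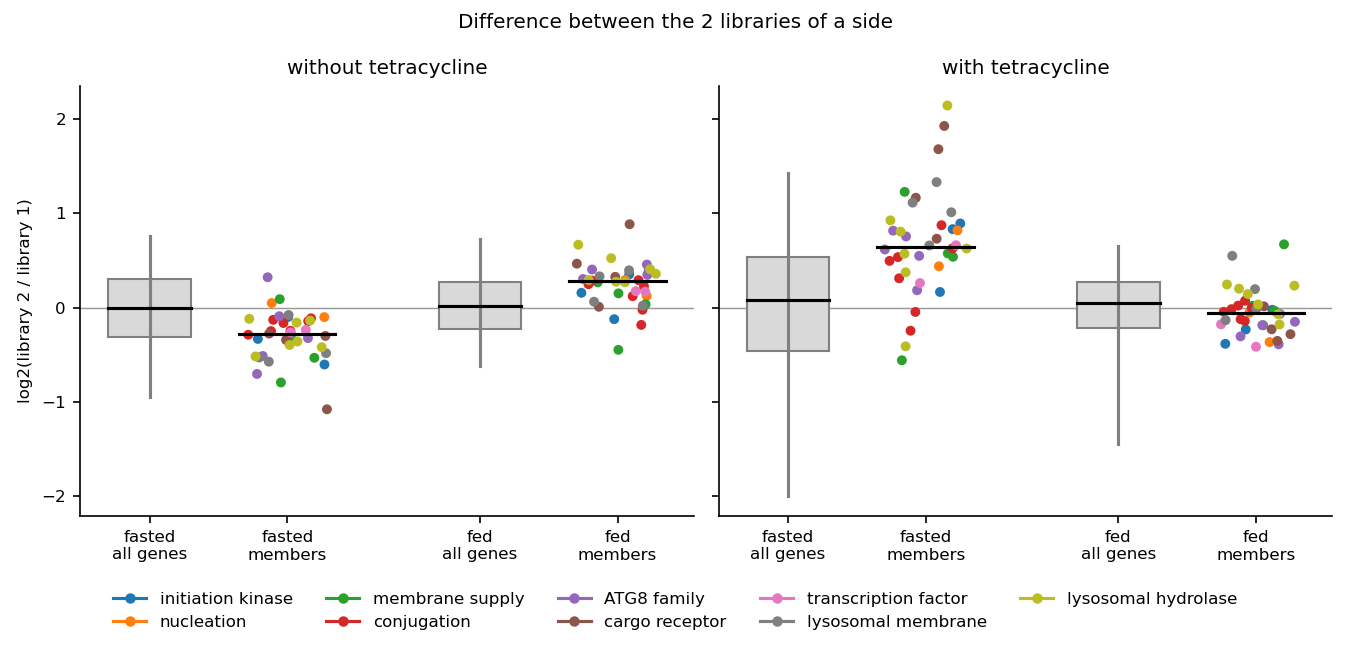
Log2 ratio of library 2 over library 1 (y axis) within the fasted and the fed side, for all genes whose mean reached 50 (box from the 25th to the 75th percentile, line from the 5th to the 95th) and for each of the 38 genes (dots, coloured by role); black bars are medians. The medians of the 38 genes are -0.28 and 0.28 without tetracycline and 0.64 and -0.06 with it.

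The sign of a change therefore often hung on 1 library. With tetracycline, leaving out each library in turn turned the sign of 28 of the 38 changes at least once, and without tetracycline of 18. The same count was not made over all genes, so it cannot be read as particular to these 38. Without fasted library 2, 8 of the 38 changes with tetracycline were positive, and without fasted library 1, 34 were. The 11 lysosomal genes, all positive with tetracycline in the authors' deposited table with a median of 0.27, had 4 positive values without fasted library 2. Without tetracycline 4 of the 11 were positive in the authors' deposited table, and between 2 and 9 when 1 library was left out.

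The design asks whether the response to fasting differed with tetracycline. The difference (change with minus change without) was tested per gene over 17571 genes, a comparison between tables that share no samples. None of the 38 passed by the two-sided Wald test with Benjamini-Hochberg adjustment, where 0.0228% of all genes did (4), and none had an unadjusted p under 0.05 (1.05% of all genes). The differences ran from -0.47 for Ulk2 to 0.49 for Ctsz with a median of 0.15, 28 of them positive. For Ctsz the 95% interval was -0.59 to 1.56, so a difference of 2-fold in that direction lay within it. The interval for Lamp2 was -1.15 to 1.08, and that for Atg10 -1.19 to 1.01.

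Levels with against without tetracycline cross 2 separately scaled tables. They were set side by side as log2 ratios of group means plus a pseudocount of 1, centred on the median of all genes, with no test. The 38 genes had a median of -0.07 in fed mice, from -0.47 for Ctsl to 0.37 for Gabarapl1. In fasted mice the median was 0.04, from -0.34 for Ctsl to 0.43 for Gabarapl1. None of the 38 differed by 1.5-fold in either state, where 10.3% and 5.69% of genes whose mean reached 50 did. The lowest mean of the 38 was 188 without and 211 with tetracycline, so these shares also cover genes of lower level. Ctsl, Ctsz and Hexa were the lowest with tetracycline in fed mice, at -0.47, -0.45 and -0.43. In fasted mice Ctsz was at 0.03 and Hexa at -0.03.

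A wider list of 107 other genes of the pathway had 105 with an adjusted p in the authors' deposited table for mice without tetracycline, and 2 of these were called (2.27% of all genes tested). Both were higher in fasted mice on the inferred direction, where the table called 191 genes higher (1.06% of all genes tested) and 220 lower. Lgmn, the asparaginyl protease legumain of the lysosome, had 4316 and 2453 normalized counts fasted and 1218 and 1380 fed. Under tetracycline the values were 1512 and 4520 against 1323 and 1231. The fasted libraries were above the fed in both settings. It rose by 1.38 (SE 0.33, adjusted p 0.00236, DESeq2) in the first setting, per the authors' deposited table, and its change with tetracycline was 1.24 (SE 0.58, adjusted p 0.830). Left without fasted library 1 the first value was 0.92, and without fasted library 2 the second was 0.24.

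Retreg1, the receptor for autophagy of the endoplasmic reticulum also called FAM134B, had 4123 and 4383 normalized counts fasted and 2221 and 2480 fed without tetracycline. Its values with tetracycline were 2708 and 14207 against 3013 and 2803, so 1 fasted library was below both fed libraries. It rose by 0.86 (SE 0.25, adjusted p 0.0346, DESeq2) in the first setting, per the authors' deposited table. With tetracycline the change was 1.54 (SE 0.71, adjusted p 0.812), per the authors' deposited table, and -0.10 without fasted library 2. The difference between settings did not pass the Wald test for either gene (unadjusted p 0.830 for Lgmn and 0.361 for Retreg1). Cell type markers also differed between the sides without tetracycline: the authors' deposited table had 6 of 9 Paneth cell markers (median change 1.15) and 2 of 10 enterocyte markers called higher, and 5 of 11 lymphocyte, 4 of 4 red cell and 3 of 9 stromal markers called lower. Their part in the values of Lgmn and Retreg1 was not tested.

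With tetracycline 106 of the 107 genes had an adjusted p in the authors' deposited table. Of these 0 were called (0.6% of all genes tested), and 4 of the list had an unadjusted p under 0.05 (5.34% of all genes). The smallest adjusted p was 0.0705 (DESeq2), for the cysteine protease Ctsf with a change of 1.74 (SE 0.50) in the authors' deposited table, a gene named after its value was seen. Its libraries stood at 281 and 230 fasted against 92.1 and 60.4 fed. In the authors' deposited tables the 107 genes had a median change of 0.03 (no tetracycline) and 0.08 (tetracycline). By role, the 11 other lysosomal membrane genes were all positive without tetracycline and 10 of them with it. Their changes without tetracycline ran from 0.003 to 0.92, with a median of 0.11, in the authors' deposited table. Lamp1, Lamp2, Mcoln1 and Atp6v1h, the 4 lysosomal membrane genes described above, had 2 positive values without and 4 with tetracycline. The 17 proton pump genes had 3 and 9 positive values, and the 13 genes of vesicle fusion 7 and 2. Of all genes whose mean reached 50, 47.8% and 48.7% were positive. In these roles 0 were called, and 1 proton pump gene had no adjusted p in the first table.

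Per kilobase of the principal transcript in GENCODE M21, the 38 genes spanned a wide range of levels. By the mean over fasted and fed libraries without tetracycline, Lamp1 stood at 13149 normalized counts per kilobase and Gabarap at 11614. Their libraries overlapped, and the order was turned in both fed libraries, with Gabarap at 10816 and 14850 and Lamp1 at 10787 and 13575. With tetracycline it was turned in fed library 1 alone (11552 for Gabarap and 9773 for Lamp1). Next came the hydrolases Ctsz at 7385, Ctsd at 5469 and Ctsb at 5398, and the receptor Sqstm1 at 4362. By single library without tetracycline, Ctsb was above Ctsd in all but fasted library 2. Within the ATG8 family the mean without tetracycline ran from Gabarap over Gabarapl2 at 3096 and Map1lc3b at 2165 to Map1lc3a at 581 and Gabarapl1 at 496 per kilobase. Gabarapl1 was above Map1lc3a in fasted library 2 of that setting, and with tetracycline by mean and in each library. Atg10 had the lowest mean at 119, and Ctsl the next at 170. Ctsl was the lower of these in both fed libraries with tetracycline (129 and 132, against 163 and 161 for Atg10), and they were level in fed library 1 without it (149 each). The order depends on the transcript taken as principal, and Ctsl's is 6168 bases long there.

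**Figure D5:**
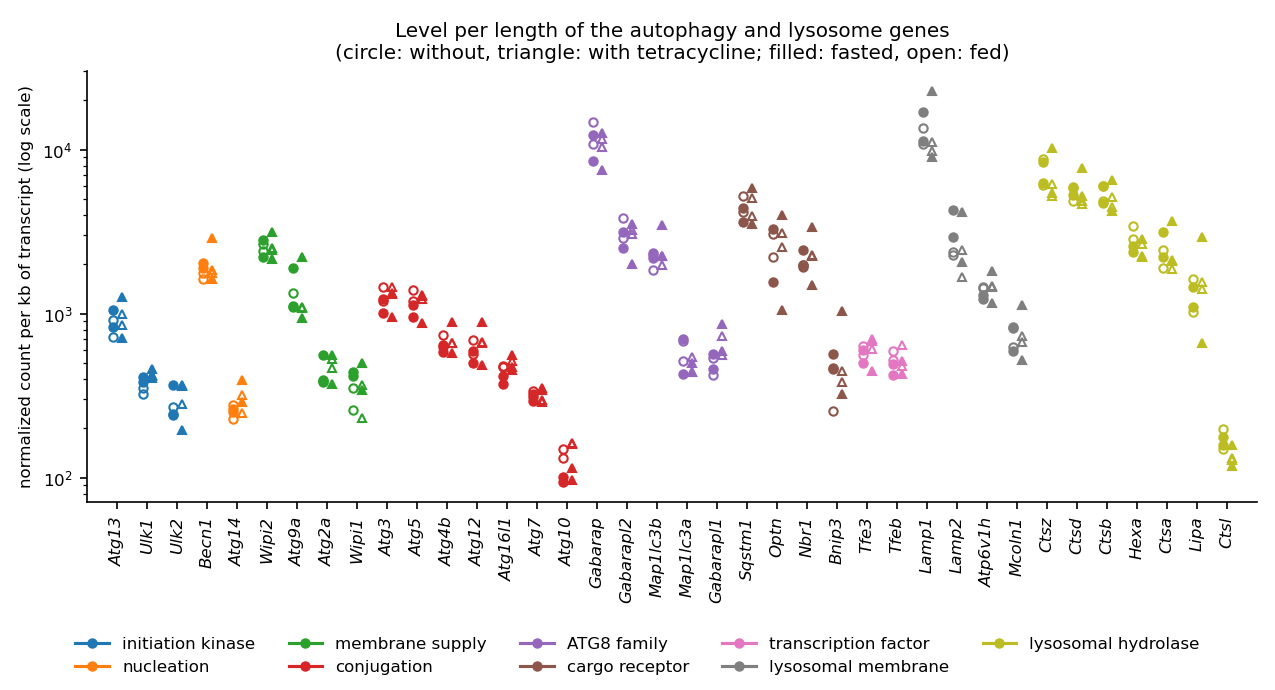
Normalized count per kilobase of principal transcript (y axis, log scale) of the 38 genes, ordered within each role by mean level without tetracycline. Circles are without and triangles with tetracycline, filled fasted and open fed, each symbol 1 recovered library. By mean over the 4 libraries, Lamp1 and Gabarap are highest and Atg10 and Ctsl lowest in both settings.

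Holders of the 8-letter promoter motif are set beside the others as a description. In the authors' deposited tables the 7 holders had a median change of 0.03 without tetracycline and 0.26 with it, and the 25 others with a window -0.02 and 0.08. Of the 7, 4 were positive without and 6 with tetracycline, with 0 called in either.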

How the data were processed

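RNA-seq of mouse small-intestinal crypts was available as 2 tables of the authors' fasting comparisons, without and with tetracycline. Per the submitters' processing notes, Salmon, DESeq2 and mm10 were used; versions and annotation are not given in the sources used here. Per the file headers, the authors' mean is a signal, the average over libraries of counts divided by size factors. The authors' fold change and its SE are on the log2 scale, the deposited statistic is a score (change over SE), and the deposited p-values come with a Benjamini-Hochberg adjusted value; both relations held in the values. Per the labels' protocols, EDTA and shaking freed the crypts, trypsin dissociated them, and the library kit did not keep strand. The tables were scaled separately. There were 0 unused columns of per-sample values.

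The means are sums of whole counts times 1 step per library. The 4 steps of each table were found from its lowest means, and counts were recovered for 99.8% of genes in each table and for all 38 genes described. For 30 of them without and 24 with tetracycline 1 set of counts matched the mean; for the others the deposited change chose among sets. Library values of these others therefore match that change by choice. The libraries of a side differed far beyond sampling noise (chi-square per degree of freedom of 121 to 628). No count model was run here. The deposited SEs and p-values rest on these libraries alone, whose spread may be technical. They need not equal the spread between 1 gene's own libraries. The smallest SE of any gene tested was 0.24 without and 0.35 with tetracycline. In both tables the deposited changes matched a fit with the numerator side as base level, but no source says which side that is.

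A call is an adjusted p under 0.05. The difference between settings was a Wald test, and levels were centred log2 ratios with pseudocount 1 over genes whose mean reached 1. The genes and lists were chosen with earlier results of these data known. All 38 genes are accounted for. Library values are given for called genes, the 8 largest changes per table and the highest mean of each role. A few others were added where their libraries did not overlap, and Optn for the gap between its libraries of 1 side. Recovery and Wald test were checked on simulated data (Python 3.11.15, numpy 2.4.6, scipy 1.17.1). Alternatives were other thresholds, centrings, filters and pseudocounts, and, chosen after seeing the data, leaving out each library. A count test on labelled libraries was not run, since the tables used here hold comparisons.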

Additional observations from a re-analysis of the deposited data

How the results depend on the processing

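Counts of called genes among the 38 were 0 for both fasting changes at an adjusted p under 0.01 and under 0.1, after re-centring, and among genes whose mean reached 50 alone. For their difference they were 0 at an adjusted p under 0.1, after re-centring, among genes whose mean reached 50 alone, and with the statistic divided by its robust SD of 0.71. Without each library in turn the median change ranged from -0.20 to 0.16 without and from -0.21 to 0.39 with tetracycline, and so took both signs; the median level with against without tetracycline ranged from -0.18 to 0.05 in fed and from -0.32 to 0.38 in fasted mice. Re-centring gave medians of 0.00 and 0.11. Retreg1 was not called at an adjusted p under 0.01. No paired analysis was possible because the labels list 1 sample per group and the recovered libraries carry no replicate number. With 2 libraries a side, changes under 2-fold are often within the interval.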

Other observations

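Pik3c3, the catalytic subunit of the Beclin 1 complex, and Vps39, a tethering protein of vesicle fusion, had fasted libraries above the fed ones without tetracycline and below them with it. Both were named after their values were seen. Without tetracycline, 30 of the 107 genes had fasted libraries above and 9 below, against 19.9% and 24.6% of genes whose mean reached 50. With it 21 were above and 6 below, against 15.7% and 15.2%. The share of all genes with opposite orders in the settings was not counted, so these genes are a description only. Pik3c3 had 1935 and 1947 normalized counts fasted against 1825 and 1665 fed without tetracycline, and 1691 and 1886 against 2000.2 and 2019 with it. Vps39 had 1698 and 1509 against 1479 and 1390, and 1394 and 1612 against 1839 and 1663. The difference of the changes was -0.32 for Pik3c3 and -0.38 for Vps39, with unadjusted p of 0.466 and 0.398 by the Wald test.

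Scarb2, a lysosomal membrane receptor named after its values were seen, lay just outside the call without tetracycline, with a change of 0.92 (SE 0.28, adjusted p 0.0526, DESeq2) in the authors' deposited table. Its libraries stood at 5870 and 8545 fasted against 3971 and 3653 fed, and with tetracycline at 7568 and 6772 against 3126 and 5035, so the fasted ones were higher both times.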
